A study of Mus musculus with 4 samples.

Results

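The genes described here are 10 transcription factors that mark the primitive streak and the early mesoderm. They were taken as the probes that carry the RefSeq identifiers of a fixed list: T, also called brachyury (NM_009309), Eomes (NM_010136), Mesp1 (NM_008588), Mesp2 (NM_008589), Mixl1 (NM_013729), Gsc (NM_010351), Lhx1 (NM_008498), Tbx6 (NM_011538), Msgn1 (NM_019544) and Evx1 (NM_007966). All 10 identifiers were on the arrays, where 12 probes read them, with 2 probes for Eomes, 2 for Tbx6 and 1 for each of the other 8 genes. The arrays named 20885 genes in all.

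Mouse pluripotent stem cells were differentiated without leukemia inhibitory factor, and 4 populations were sorted by flow cytometry. Flk1+ MPCs are mesodermal precursor cells that carry the VEGF receptor Flk1 (gene Kdr) and were taken at day 4.5. PCBs, the PDGFRα+ Flk1- cardioblasts, were taken at day 5.5 from a culture given CsAYTE, which combines Cyclosporin A with Y27632 (a ROCK inhibitor), Trolox (an antioxidant) and EW7197 (an ALK5 inhibitor). The sfPCBs, also of day 5.5, had formed spontaneously without CsAYTE. The M+CMs were αMHC-GFP+ cardiomyocytes of day 10.5, which the study describes as differentiated from PCBs, and the label of this array does not mention CsAYTE. DMSO served as the vehicle, and no genetic change beyond the αMHC promoter-driven GFP reporter of the EMG7 stem cell line is described, which the labels of the arrays do not name. Sorted Flk1+ MPCs were replated on OP9 cells, a mouse stromal feeder line, or on gelatin, and the labels do not say which was used for the arrays. The study reports that mouse PCBs were not induced when feeder cells were absent. Each population was measured on 1 Agilent array, and all 4 arrays lay on 1 slide. There were no replicates, so no test between populations was possible, and differences between cultures of the same kind have no estimate.

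The primitive streak is the region of the gastrulating embryo where epiblast cells undergo an epithelial to mesenchymal transition and become mesoderm and definitive endoderm. Nodal and Wnt signals start the program, and the T-box factors T and Eomes are among the earliest genes that respond. Mesp1 then marks the nascent mesoderm that gives rise to the heart and much of the vasculature, while Tbx6, Msgn1 and Mesp2 belong mainly to the paraxial mesoderm that forms the somites. In the embryo most of these factors are expressed in the mesoderm only briefly.

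Promoter sequences were matched for 9 of the 10 genes, all but Mixl1, in RefSeq's mouse assembly GRCm38.p6, as the 250 bases before the annotated start. T-box factors bind DNA through a core that reads AGGTGT, or on the other strand ACACCT. This core was found on either strand in the promoters of T, Mesp1 and Evx1, 3 of the 9, against 11.8% of 32851 promoters of the same length. These 3 promoters are shown because they hold the T-box core, and because T and Eomes encode T-box factors. Their genes went from bright in Flk1+ MPCs to not above background in PCBs. So did Gsc, whose promoter had no T-box core. Capitals mark the T-box core and the letters CTTTGA, or on the other strand TCAAAG, which TCF/LEF factors of the Wnt pathway recognise.
T, chr17:8434173-8434422, plus strand: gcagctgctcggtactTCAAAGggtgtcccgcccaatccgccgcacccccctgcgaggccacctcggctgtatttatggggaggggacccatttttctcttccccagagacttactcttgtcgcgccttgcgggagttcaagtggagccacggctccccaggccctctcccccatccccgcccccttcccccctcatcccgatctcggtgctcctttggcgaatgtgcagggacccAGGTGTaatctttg
Mesp1, chr7:79793591-79793840, minus strand: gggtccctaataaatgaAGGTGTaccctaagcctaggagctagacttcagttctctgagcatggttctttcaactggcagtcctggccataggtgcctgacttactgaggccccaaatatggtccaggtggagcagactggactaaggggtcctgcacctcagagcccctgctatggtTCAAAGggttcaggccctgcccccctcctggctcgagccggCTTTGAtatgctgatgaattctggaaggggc
Evx1, chr6:52313248-52313497, plus strand: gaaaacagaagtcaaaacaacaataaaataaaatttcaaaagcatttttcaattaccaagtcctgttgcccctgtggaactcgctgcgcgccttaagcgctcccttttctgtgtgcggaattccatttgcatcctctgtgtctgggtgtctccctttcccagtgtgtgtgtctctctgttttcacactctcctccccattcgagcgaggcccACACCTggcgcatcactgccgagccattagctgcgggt
The TCF/LEF letters were in the promoters of T, Mesp1 and Msgn1, 3 of the 9, against 13.8% of all promoters. The T-box core began at position -14 from the start in T, -233 in Mesp1 and -38 in Evx1, and in T and Evx1 it overlapped an E-box (CANNTG, the letters that bHLH factors such as Mesp1 bind). E-boxes were in 6 of the 9 promoters and in 66.2% of all promoters, a TATA box (TATAAA) was in 2 of the 9 (Gsc and Tbx6) and in 12.4% of all, and the FoxH1 letters AATCCACA, bound by a partner of Smads in Nodal signaling, were in 0 of the 9 and in 0.718% of all. Such matches describe letters in a window and no binding was measured.

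Signals are the background-subtracted intensities of the scanner software, scaled so that the 75th percentile of each array was the same. Each is given with the error that the software estimates for the spot and its background, which covers neither the culture nor the RNA preparation. Well above background was called by the software for 73.3% to 76.2% of the 43020 spots of each array, and the dimmest probe with that call had a scaled signal between 15.1 and 15.9 (the floor of that array). Where a probe was not well above background on the dimmer array, the ratio was taken against the floor or the probe's own signal, whichever was higher, and is a bound. The median SD between repeated spots of a probe was 0.10 (log2) on the sfPCB array and between 0.05 and 0.06 on the others. The labels were checked against known markers. Myh6, the α myosin heavy chain, had signals of 116 in Flk1+ MPCs, 128 in sfPCBs and 82857 in PCBs, with 478627 in M+CMs. Pdgfra had 7237, 3647, 9136 and 918 in the same order. Kdr had 11263, 6661, 7272 and 7499 by the on average brighter of its 2 probes. By this probe the RNA of the sorted receptor had a log2 ratio of -0.63 between PCBs and Flk1+ MPCs. It was well above background in all 4 populations, and the values of the other probe are not given here.

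All 12 probes of the streak and early mesoderm genes were brightest in Flk1+ MPCs, as were 36.4% of the 32443 probes well above background on at least 1 array. In Flk1+ MPCs and in sfPCBs, 12 of 12 probes were well above background. In PCBs and in M+CMs, 6 of 12 were, for the same 5 genes in each: Eomes (1 of its 2 probes), Mesp2, Lhx1, Tbx6 and Msgn1. T, Mesp1, Mixl1, Gsc and Evx1 were not well above background in either.

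**Figure D1:**
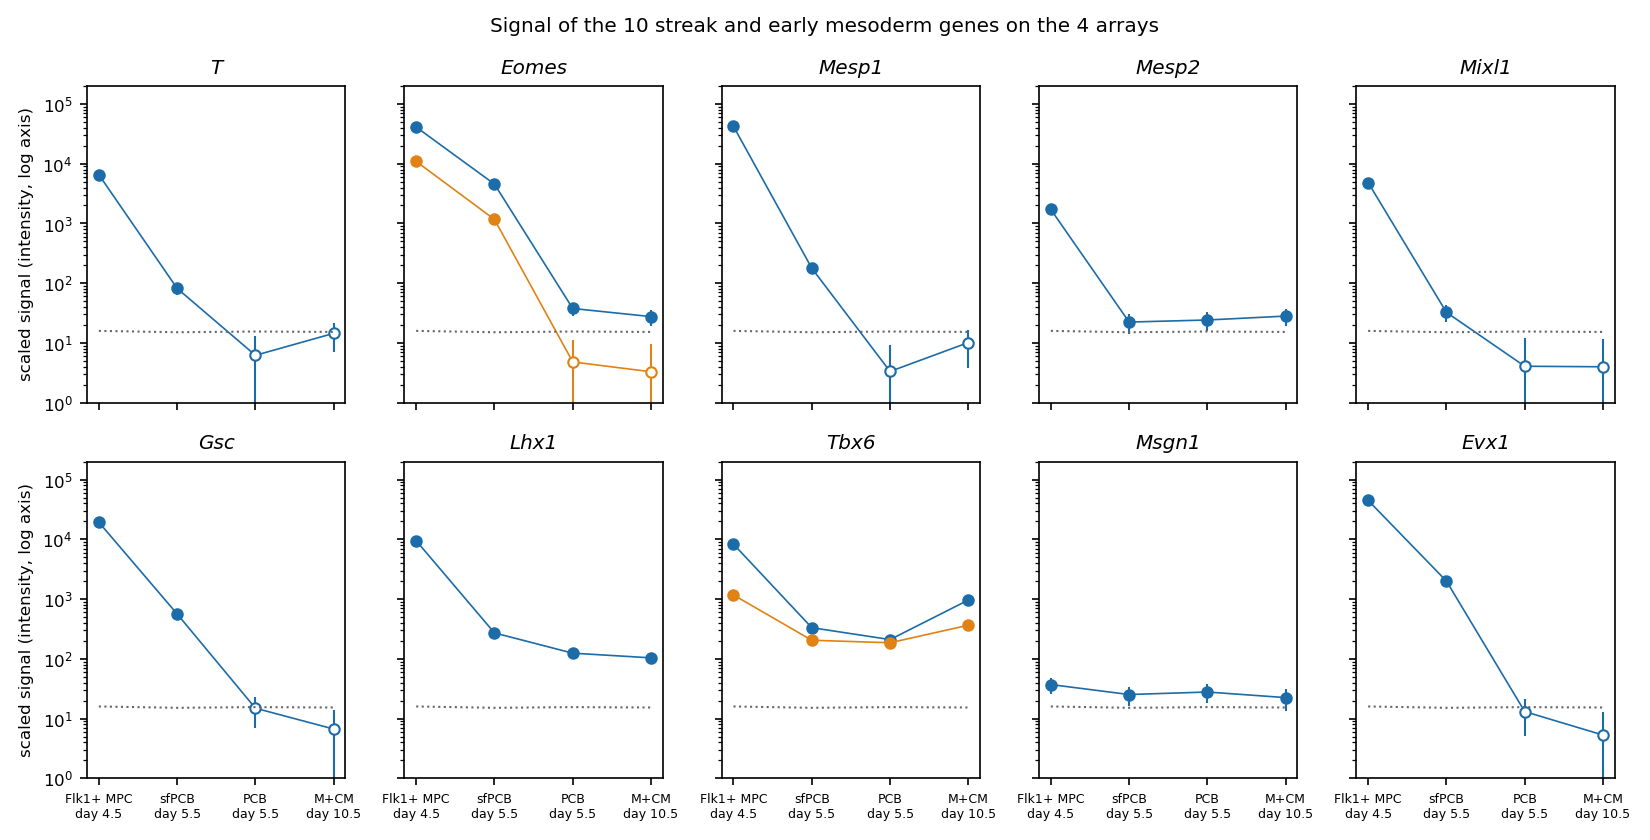
Scaled signal (intensity, log axis) of each gene on the 4 arrays, 1 array per population. Filled circles are well above background and open circles are not, bars are 1.96 times the software's error (cut at a signal of 1), the second colour is the second probe of Eomes and of Tbx6, lines only join a probe's values, and the dotted line is the floor. Msgn1 lies near the floor on every array, the other 9 genes are high in Flk1+ MPCs, and T, Mesp1, Mixl1, Gsc and Evx1 are open in PCBs and M+CMs.

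T, the T-box factor that defines the streak and is needed for posterior mesoderm, had a scaled signal of 6554 ± 655 in Flk1+ MPCs, 82.0 ± 8.94 in sfPCBs and 6.22 ± 3.63 in PCBs, with 14.5 ± 3.77 in M+CMs. It was high only in Flk1+ MPCs, and low but above background in sfPCBs. The signal in sfPCBs was 79.9-fold lower than in Flk1+ MPCs (log2 ratio -6.32, error 0.21), and that in PCBs was at least 422-fold lower.

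Eomes, the T-box factor required for cardiac mesoderm and definitive endoderm, had 41054 ± 4105 in Flk1+ MPCs, 4554 ± 455 in sfPCBs and 37.8 ± 4.89 in PCBs, with 27.6 ± 4.13 in M+CMs with its brighter probe. The other probe had 10940 ± 1094, 1168 ± 117, 4.82 ± 3.35 and 3.30 ± 3.28. By its 2 probes Eomes kept 11.1% and 10.7% of its Flk1+ MPC signal in sfPCBs, a larger share than T, Mesp1, Mixl1, Gsc or Evx1, the genes not above background in PCBs. From Flk1+ MPCs to PCBs the brighter probe was 1087-fold lower (log2 ratio -10.09, error 0.24) and the other at least 704-fold lower. The latter is a bound, so the 2 probes could be compared in size only for sfPCBs, where their log2 ratios (-3.17 and -3.23) differed by less than the error of the difference. The PCB and M+CM signals of the brighter probe differed by less than 1.96 errors (log2 ratio -0.45, error 0.29).

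Tbx6, a T-box factor that directs cells to paraxial rather than neural fate, had 8298 ± 830 in Flk1+ MPCs, 332 ± 33.4 in sfPCBs and 210 ± 21.2 in PCBs, with 963 ± 96.4 in M+CMs with its brighter probe. The other probe had 1171 ± 117, 205 ± 20.8, 186 ± 19.1 and 365 ± 36.7. Tbx6 was well above background in all 4 populations and, of the 10 genes, was the only one with a probe above background that exceeded its PCB signal 2-fold or more in M+CMs. Its 2 probes gave the same order of populations but different sizes. Against Flk1+ MPCs the PCB signal was 39.5-fold lower by the brighter probe and 6.31-fold lower by the other, with a difference of -2.65 between the log2 ratios (error 0.29). Against PCBs the M+CM signal was 4.59-fold higher by the brighter probe (log2 ratio 2.20, error 0.21) and 1.97-fold higher by the other (0.97, error 0.21).

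Mesp1, the bHLH factor of the nascent cardiac mesoderm, had 42204 ± 4220 in Flk1+ MPCs, 179 ± 18.1 in sfPCBs and 3.34 ± 3.11 in PCBs, with 10.2 ± 3.23 in M+CMs. Its signal in sfPCBs was 236-fold lower than in Flk1+ MPCs (log2 ratio -7.89, error 0.21), which ranked 1 from the lowest of 30689 ratios. In PCBs it was at least 2714-fold below Flk1+ MPCs and, as a bound, its log2 ratio to sfPCBs was at most -3.52.

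Mesp2, the neighbouring bHLH gene that sets somite boundaries, lies beside Mesp1 on chromosome 7, with Mesp1 at 79792241 to 79793590 and Mesp2 at 79810727 to 79813431 (GRCm38.p6). It had 1716 ± 172 in Flk1+ MPCs, 22.4 ± 4.18 in sfPCBs and 24.2 ± 4.25 in PCBs, with 28.2 ± 4.41 in M+CMs. The 3 later populations lay just above the floor and did not differ beyond the errors, and sfPCBs were 76.6-fold and PCBs 70.8-fold below Flk1+ MPCs. Msgn1, the bHLH gene of the presomitic mesoderm, had 37.1 ± 5.55, 25.3 ± 4.58, 27.8 ± 4.94 and 22.4 ± 4.52. It was near the floor in all 4 populations, and its ratio exceeded 1.96 errors in just 1 pair of populations, M+CMs against Flk1+ MPCs (log2 ratio -0.73, error 0.36).

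Among the homeobox genes, Mixl1, which acts in mesendoderm downstream of Nodal, had 4837 ± 484 in Flk1+ MPCs, 32.6 ± 5.02 in sfPCBs and 4.08 ± 4.06 in PCBs, with 4.0 ± 3.98 in M+CMs. Evx1, a gene of the posterior streak, had 44790 ± 4479, 1999 ± 200, 13.1 ± 4.02 and 5.30 ± 3.75. Mixl1 and Evx1 differed in what the sfPCBs kept of the Flk1+ MPC signal, 0.67% and 4.46%. In PCBs the signal of Mixl1 was at least 311-fold and that of Evx1 at least 2881-fold lower than in Flk1+ MPCs. Since both are bounds against the floor, they have no order among themselves or with Mesp1.

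Gsc, the homeobox gene of the anterior streak and organizer, had 19299 ± 1930 in Flk1+ MPCs, 564 ± 56.5 in sfPCBs and 14.9 ± 4.11 in PCBs, with 6.68 ± 3.79 in M+CMs. Lhx1, a LIM-homeobox gene of the anterior mesendoderm and later of the lateral and intermediate mesoderm, had 9466 ± 947, 271 ± 27.5, 124 ± 13.3 and 104 ± 11.4. Gsc was above background in sfPCBs and not in PCBs or M+CMs, whereas Lhx1 stayed well above it in all 4. Lhx1 and Gsc kept 2.87% and 2.92% of their Flk1+ MPC signal in sfPCBs. In PCBs Lhx1 kept 1.31%, and its PCB and M+CM signals differed by less than 1.96 errors (log2 ratio -0.26, error 0.22).

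Between PCBs and Flk1+ MPCs, the step from precursor to cardioblast under CsAYTE, 11 of the 12 probes, for 9 of the 10 genes, were at least 2-fold lower in PCBs, where 10.5% of the 30811 probes compared were. At least 30-fold lower were 10 probes for the same 9 genes, against 0.36% of all probes. None of the 12 was at least 2-fold higher, against 11.6% of all. The median log2 ratio was -8.50 over the 12 probes, 6 of which gave bounds, and -0.19 over all probes. Msgn1 was the gene that did not pass 2-fold, with a log2 ratio of -0.42 (error 0.33). As these are mixed RNAs of whole populations, fewer cells of a type and less RNA per cell cannot be told apart.

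Between sfPCBs and Flk1+ MPCs, the corresponding step without CsAYTE, 11 of the 12 probes for the same 9 genes were again at least 2-fold lower, against 10.5% of 30689 probes. At least 30-fold lower were 6 probes for 6 genes (T, Mesp1, Mesp2, Mixl1, Gsc and Lhx1), against 0.13% of all, and 0 of the 12 were at least 2-fold higher, against 12%. The median log2 ratio was -4.87 over the 12 probes and -0.22 over all. This comparison shares the Flk1+ MPC array with the preceding one.

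PCBs and sfPCBs, which differ by label in CsAYTE at the same day, were then compared directly. In PCBs 8 of the 12 probes, for 7 genes (T, Eomes, Mesp1, Mixl1, Gsc, Lhx1 and Evx1), were at least 2-fold lower, against 6.41% of 30117 probes. At least 30-fold lower were 4 probes for 3 genes, against 0.169% of all: Evx1 at least 129-fold, Eomes 121-fold by 1 probe and at least 75.1-fold by the other, and Gsc at least 36.3-fold. No probe of the 10 genes was at least 2-fold higher in PCBs, against 4.95% of all. The median log2 ratio was -1.76 over the 12 probes and 0.03 over all. Lhx1 was 2.18-fold lower and Mixl1 at least 2.09-fold lower, close to the limit. With normexp background correction and quantile normalization, T (log2 ratio -0.91), Lhx1 (-0.81) and Mixl1 (-0.59) did not reach 2-fold. The log2 ratio of Tbx6 was -0.66 and -0.14 by its 2 probes, and Mesp2 and Msgn1 differed by less than their errors. The 5 genes without a signal above background in PCBs, together with Eomes, therefore account for 7 of the 8 probes, and Lhx1 for the other.

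**Figure D2:**
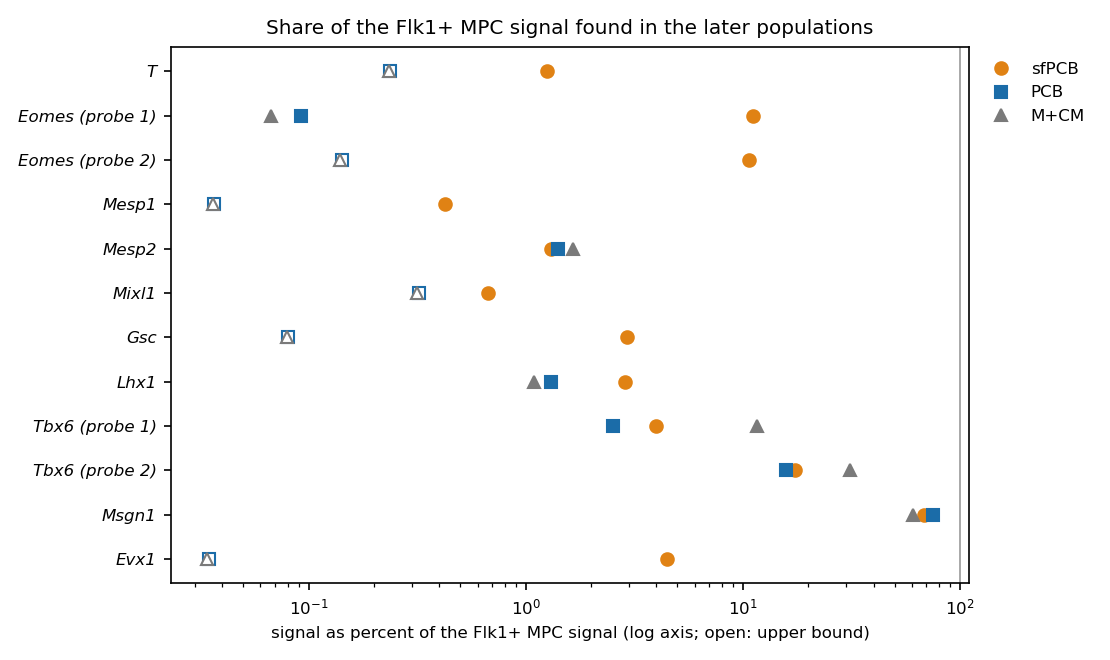
Scaled signal of each probe as a percent of its own Flk1+ MPC signal (log axis), in sfPCBs (circles), PCBs (squares) and M+CMs (triangles), 1 array each. Open symbols are upper bounds from the floor, because the probe was not well above background. Eomes keeps 11.1% and 10.7% in sfPCBs and at most 0.14% in PCBs, whereas Mesp2, Msgn1 and the second probe of Tbx6 have nearly the same share in both.

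Genes of other cell types differed between these arrays as well. The summed signal of 7 stromal genes (Col1a1, Col1a2, Col3a1, Postn, Lum, Dcn and Thy1), which a feeder line such as OP9 expresses, was 3006 in Flk1+ MPCs, with Postn, Lum and Dcn not well above background. It was 274594 in sfPCBs, with 7 of 7 well above background, 141117 in PCBs, with Postn not, and 22123 in M+CMs, with 7 of 7. The genes did not move alike. The sfPCBs exceeded Flk1+ MPCs 2-fold or more in 6 of the 7, against 12% of all probes. Thy1 was lower in sfPCBs, with 1065, 102, 147 and 74.2 in the same order. Postn had 10.2, 12884, 13.2 and 46.6, Lum had 3.35, 8782, 30.2 and 104, and Dcn had 12.5, 3794, 124 and 393. PCBs were at least 2-fold lower than sfPCBs in 5 of the 7 and higher in 0, against 6.41% and 4.95% of all probes. Col1a2 had 780, 175056, 109298 and 18307, and so made up most of the sum in sfPCBs, PCBs and M+CMs. The sum of 6 endothelial and blood genes was 1089, 5174, 3288 and 522, with Hba-x not above background in Flk1+ MPCs, Cdh5 not in PCBs, and Cdh5, Gata1 and Hba-x not in M+CMs. This sum was mostly Hbb-bh1 in sfPCBs and PCBs (182, 2781, 2525 and 89.9). Between PCBs and Flk1+ MPCs 2 of the 6 genes were at least 2-fold higher and 2 lower, against 11.6% and 10.5% of all probes. The 2 lower genes were Tal1 and Cdh5. In sfPCBs 5 of the 6 were at least 2-fold higher than in Flk1+ MPCs and 0 lower, against 12% and 10.5%. PCBs were at least 2-fold lower than sfPCBs in 4 of the 6 and higher in 0, against 6.41% and 4.95%. Cdh5 had 36.2, 987, 6.48 and 3.31. The sum of 4 pluripotency genes was 1755, 1388, 870 and 1059, with Pou5f1 not above background in PCBs and Sox2 not in M+CMs. Pou5f1 (897, 71.6, 12.9 and 18.0) and the on average brighter of 2 Nanog probes (194, 256, 434 and 906) went opposite ways. The 2 Nanog probes were themselves opposed, as the other was at least 2-fold lower in PCBs than in Flk1+ MPCs. The direction of Nanog is therefore not settled here. For 5 endoderm genes the sum was 1283, 822, 469 and 66.6, with Apoa1 not above background in any population and Afp and Ttr not in Flk1+ MPCs. These genes did not move alike either. Afp had 6.41, 471, 376 and 3.72, the first and last not above background, and Foxa2 had 924, 237, 56.9 and 25.3. Sox17, like Foxa2, was lower at day 5.5 than in Flk1+ MPCs. The sum of 6 cardiomyocyte genes was 6827, 4731, 587280 and 1538010, with 6 of 6 well above background on every array. Between sfPCBs and Flk1+ MPCs 3 of the 6 were at least 2-fold higher and 2 lower, against 12% and 10.5% of all probes. Tnnt2 had 150 in Flk1+ MPCs and 3176 in sfPCBs, whereas Myl7 had 6095 and 588. The part of these genes' cell types in the differences of the streak genes was not tested.

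Between M+CMs and PCBs, 6 of the 12 probes could be compared, since neither array had a signal above background for the others. None was at least 2-fold lower, against 14.7% of 31131 probes, and 1, the brighter probe of Tbx6, was at least 2-fold higher, against 18.7%. The median log2 ratio was -0.02 over the 6 probes and 0.14 over all. Apart from both Tbx6 probes, the differences stayed within 1.96 errors. Relative to Flk1+ MPCs, M+CMs were at least 2924-fold lower in Evx1, at least 2755-fold in Mesp1 and at least 428-fold in T.

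The signals that induce the streak were followed in a list of 10 genes, of which 9 could be compared. Between PCBs and Flk1+ MPCs 6 of the 9 were at least 2-fold lower and 0 higher (median log2 ratio -2.20), against 10.5% of all probes lower and 11.6% higher (median -0.19). These shares, and 10.5% lower and 12% higher for sfPCBs, are the background of the list counts that follow. Nodal, the TGF-β family ligand of the streak, had 8675 in Flk1+ MPCs, 7382 in sfPCBs and 161 in PCBs, with 143 in M+CMs. Nodal was thus at nearly the same level in sfPCBs as in Flk1+ MPCs and low in both other populations. Wnt3, the Wnt ligand required for streak formation, had 8994, 838, 8.15 and 3.51, the last 2 not above background. Fgf4, a growth factor of the epiblast, had 505, 6.45, 15.8 and 20.1 and was above background in Flk1+ MPCs and M+CMs. In sfPCBs 6 of the 9 genes of the list were also at least 2-fold lower than in Flk1+ MPCs, with a median log2 ratio of -2.14.

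Of 8 inhibitors and feedback targets of these signals, 6 were at least 2-fold lower in PCBs than in Flk1+ MPCs and 0 higher, with a median log2 ratio of -4.23. The same numbers, 6 and 0, held for sfPCBs, with a median of -3.32. Sp5, a target of Wnt signaling, had 47602 in Flk1+ MPCs, 1428 in sfPCBs and 102 in PCBs, with 45.8 in M+CMs. Lefty2, an inhibitor and target of Nodal, had 25874, 865, 95.7 and 190. Cer1, a secreted inhibitor of Nodal, BMP and Wnt, had 577, 65.9, 5.75 (not above background) and 43.5. Sp5, Lefty2 and Cer1 had the order of T, Eomes and Gsc, with sfPCBs between Flk1+ MPCs and PCBs.

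Of 16 presomitic and somite genes, 9 were at least 2-fold lower and 1 higher in PCBs (median log2 ratio -2.57; all probes 10.5% and 11.6%), and 7 were lower and 3 higher in sfPCBs (median -0.50), where 3 of 16 is not far from the 12% of all probes. Cyp26a1, which degrades retinoic acid, had 64999 in Flk1+ MPCs, 4658 in sfPCBs and 42.1 in PCBs, with 7.88 (not above background) in M+CMs. Pcdh8, a protocadherin of the presomitic mesoderm, had 1421, 47.1, 21.0 and 22.2, and Dll3, a Notch ligand, had 8055, 196, 128 and 116. Of 11 genes of the node and axial mesendoderm, 9 could be compared, and 5 were at least 2-fold lower in PCBs and 0 higher (median -1.81), with 4 lower and 0 higher in sfPCBs (median -0.60). Cer1, given above, is also one of them. Noto and Shh, which mark the node and notochord, were not above background in any population. Otx2, an anterior homeobox gene, had 41940 in Flk1+ MPCs, 3650 in sfPCBs and 542 in PCBs, with 112 in M+CMs, and Sox17, an endoderm gene, had 327, 95.2, 12.1 and 13.1, the last 2 not above background.

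Of 10 genes of the epithelial to mesenchymal transition, 4 were at least 2-fold lower and 2 higher in PCBs (median -0.45), against 10.5% and 11.6% of all probes, and 3 were lower and 3 higher in sfPCBs (median -0.07). Snai2, a repressor of epithelial genes, had 260 in Flk1+ MPCs, 12918 in sfPCBs and 10894 in PCBs, with 1450 in M+CMs. Cdh1, the epithelial cadherin, had 275, 173, 11.8 and 10.3, the last 2 not above background, and Epcam, an epithelial adhesion molecule, had 723, 95.9, 57.6 and 25.3. Snai2 was thus higher in both day 5.5 populations. Cdh1 was low in PCBs, and in sfPCBs it was lower than in Flk1+ MPCs by less than 2-fold (log2 ratio -0.67).

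In contrast to the streak genes, 9 of 13 cardiac mesoderm regulators were at least 2-fold higher and 3 lower in PCBs than in Flk1+ MPCs, with a median log2 ratio of 2.93, against 11.6% and 10.5% of all probes. In sfPCBs 6 were higher and 3 lower, with a median of 0.83, against 12% and 10.5%. Myocd, a coactivator of cardiac and smooth muscle genes, had 156 in Flk1+ MPCs, 984 in sfPCBs and 16719 in PCBs, with 13450 in M+CMs. Mef2c had 19.8, 201, 1616 and 729, and Meis1 had 347, 8813, 27911 and 17461. Both encode transcription factors of heart development, and each was brightest in PCBs.

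**Figure D3:**
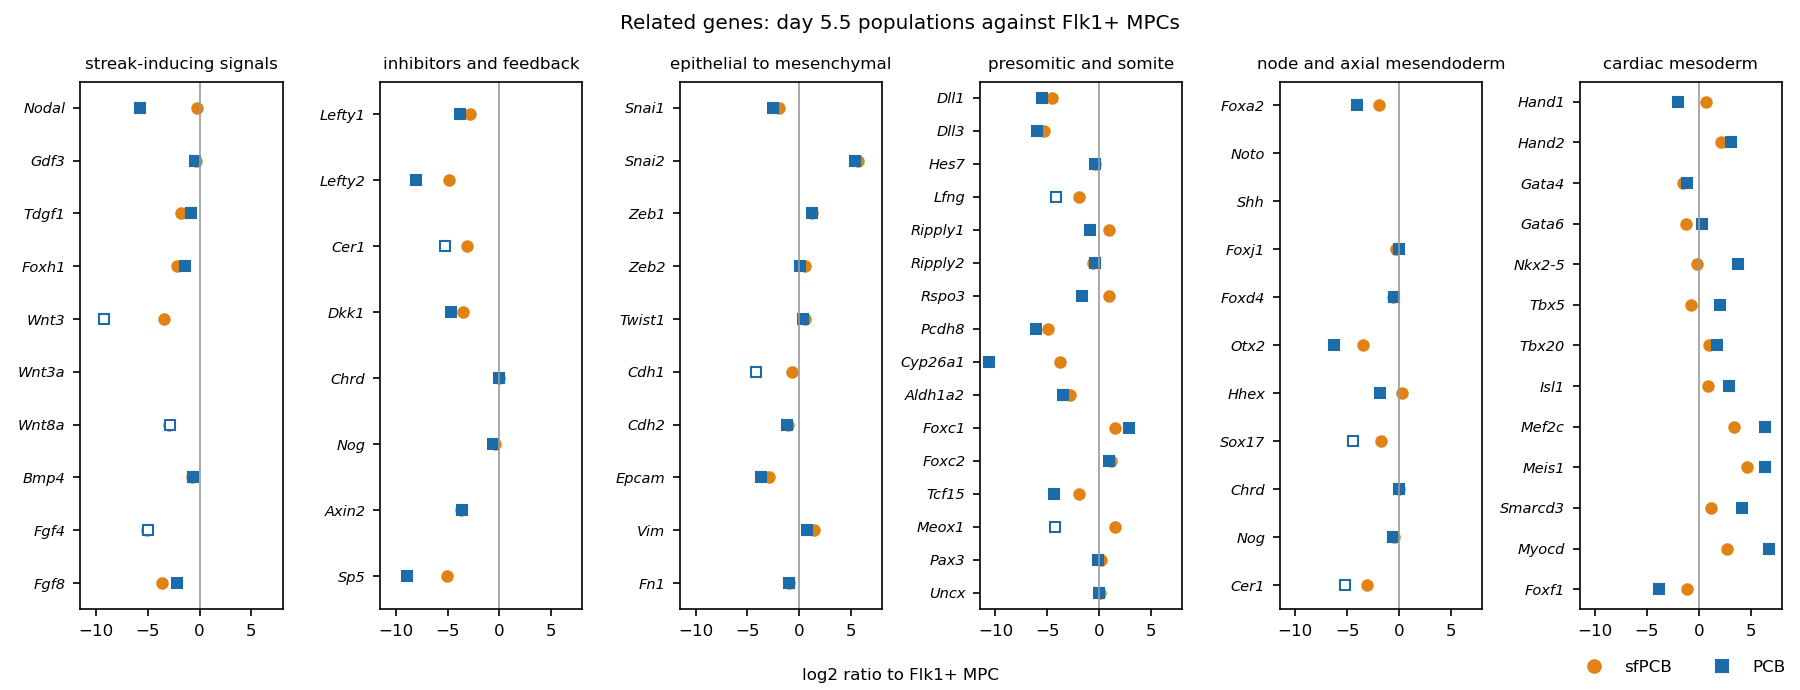
Log2 ratio to Flk1+ MPCs of the genes in 6 related lists, for sfPCBs (circles) and PCBs (squares), 1 array each. Open symbols are bounds, and a gene without a symbol was not above background on the arrays compared. Most symbols of the first 2 lists and of the presomitic list lie below 0, with Nodal near 0 in sfPCBs and at -5.76 in PCBs, and most of the cardiac list lies above 0.

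The genes whose pattern over the 4 arrays lay nearest to T, Eomes and Mesp1 were sought among 22816 probes with a curated RefSeq identifier. The measure was the distance between log2 signals centred on each probe's own mean, after signals not well above background were raised to the floor. With 4 arrays such a distance describes these populations and has no error estimate. Nearest to T were Dll3 (distance 0.79), Optc (0.99), Mixl1 (1.09), Lefty2 (1.31) and Zic2 (1.41). For Dll3 this was a probe other than the one given above, with signals of 19270, 223, 85.9 and 54.9. Nearest to Eomes were Cyp26a1 (1.09), Evx1 (1.11), Wnt3 (1.30), Vrtn (1.48) and Gsc (1.71). Nearest to Mesp1 were Gsc (1.99), T (2.20), Sp5 (2.23), Dll3 (2.79) and Mixl1 (2.83), at larger distances than for T or Eomes. Mixl1, Gsc, Evx1 and T, themselves among the 10 genes, took 6 of these 15 places, where the 10 genes had 12 of the 22816 probes. For T, Mesp1, Mixl1, Gsc and Evx1 the PCB and M+CM values were the floors. Part of their likeness to one another was therefore fixed beforehand.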

How the data were processed

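RNA of 4 sorted populations was measured on 1 Agilent array each (Feature Extraction 11.5.1.1; the design is annotated on mm9 per the file headers), and populations were assigned from the labels. The authors deposited, for each spot, background-subtracted intensities with their errors, raw intensities and quality flags, and a value table that holds the log2 of the same deposited processed signals without scaling. From these, control spots and outlier spots (87 to 144 per array) were left out, and no spot was saturated. Signals were scaled so that each array's 75th percentile was 2198.43, and the log2 values of repeated spots were averaged, giving 39428 probes. A probe counted as well above background when a share of 0.5 or more of its spots had that call, and was compared when that held on at least 1 of the arrays. A dimmer signal that was not well above background was raised to the floor.

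The 10 genes and the lists were chosen with earlier results of these data known. Each list is given by 1 probe per gene, the brightest on average. For the related lists, signals are given for the 3 genes with the largest log2 ratio in size between PCBs and Flk1+ MPCs. Genes of the other cell types were named without such a rule. Symbols, positions and promoters came from RefSeq (GRCm38.p6), which named 27507 probes. The median log2 ratio of all probes shifted with the scaling: between PCBs and Flk1+ MPCs it was -0.19 as scaled and -0.01 without scaling, and between sfPCBs and Flk1+ MPCs -0.22 and 0.11. Quantile normalization, no scaling, normexp background correction (offset of 50), detection on both arrays, an offset of 50, leaving out saturated spots and the deposited value table were tried as alternatives. Python 3.11.15 (numpy 2.4.6, pandas 2.3.3, matplotlib 3.10.9) and R 4.3.3 (limma 3.58.1) were used, and the counting steps were tested on simulated data.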

Additional observations from a re-analysis of the deposited data

How the results depend on the processing

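The number of probes of the 10 genes that were at least 2-fold lower in PCBs than in Flk1+ MPCs was 11 as reported and 5 when a probe had to be well above background on both arrays, since only 6 of the 12 probes met that. The number lower in PCBs than in sfPCBs was 8 as reported, 2 with detection on both arrays and 5 with normexp and quantile normalization. The other counts were within 1.5 times the reported value under each alternative. The sign turned for 4 of the recomputed ratios, of Mesp2 and Msgn1, each of 0.22 or less in size as reported and within its error, and for no other. Of 356 ratios and medians recomputed, 92 moved by more than the software's error, 34 of them with normexp and 29 with the offset of 50, which both shrink ratios of dim signals. With no floor under dim signals, an alternative chosen after seeing the data, 10 moved. The median between PCBs and Flk1+ MPCs, -8.50 as reported, was -6.03 with normexp, -5.73 with detection on both arrays, -6.44 with the offset and -10.06 with no floor. The median between PCBs and sfPCBs, -1.76 as reported, was -0.86, -0.40, -0.95 and -3.36 in the same order. Leaving out saturated spots and using the deposited value table moved none, an outcome that was fixed beforehand. No spot was saturated, and the value table holds the same processed signals. Each of these 2 alternatives adds 46 of the 356 values. Detection on both arrays leaves the ratio of a probe unchanged, so it could move only medians and counts. The 92 that moved therefore came from fewer than 356 values that could move. No paired analysis was possible because there was 1 array per population, and for the same reason no replicate could be left out. Signals below about 15 have no firm size.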

Other observations

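Between M+CMs and PCBs, 14.7% of all probes were at least 2-fold lower and 18.7% higher in M+CMs, and the counts of the related lists are given beside these shares. Of 7 streak-inducing signals compared, 2 were at least 2-fold lower and 0 higher in M+CMs, and of 8 inhibitors and feedback targets 2 were lower and 2 higher. Of 14 presomitic and somite genes compared, 3 were lower and 3 higher, and of 8 genes of the node and axial mesendoderm 2 were lower and 1 higher. Of 9 genes of the epithelial to mesenchymal transition, 5 were lower and 1 higher. Of 13 cardiac mesoderm regulators, 4 were higher and 2 lower. A few genes, chosen after their values were seen, stood out. Foxh1, the Smad partner in Nodal signaling, had 13746 in Flk1+ MPCs, 3118 in sfPCBs and 5326 in PCBs, with 81.4 in M+CMs, so unlike Nodal it was still high in PCBs. Meox1, a homeobox gene of the somites, had 293, 821, 8.94 and 3.54, the last 2 not above background, and was thus higher in sfPCBs than in Flk1+ MPCs. These values come from 1 array each.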
